A study of Mus musculus with 66 samples.

Results

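Cytochrome P450 enzymes of the lung and their regulator Ahr were followed from the embryo to the young adult mouse, with and without Nrf2. The 8 genes listed were Cyp1a1, Cyp1b1, Cyp2b10, Cyp2f2, Cyp2s1, Cyp4b1, Por and Ahr. Members were the array probe sets whose platform annotation gives exactly 1 of these genes, and the probe set with the highest mean over all arrays stood for its gene. This gave 7 measured genes, with 12 probe sets in all, of 18193 genes on the array. No probe set was matched to Por, which is not analysed here. The genes were listed by name, and the only measured value in the rule is the mean that picks a probe set. The list was chosen with earlier results of these data known, so member counts beside array-wide shares are a description.

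Affymetrix mouse arrays, 1 for each of 66 samples, measured total RNA of lung homogenates in 22 groups of 3. Wild-type mice (Nrf2+/+, WT) and Nrf2 knockout mice (Nrf2-/-, KO) were compared at 4 embryonic ages, E13.5, E15.5, E17.5 and then E18.5, and at 7 postnatal ages, of which PND0 to PND4 follow each other daily and PND14 and PND42 come later. All dams and postnatal mice were fed the AIN-76A diet and the labels name no inducer of P450 genes. At E13.5 each sample combined 2 to 3 lungs, and at the other ages each was 1 lung. Samples within a group are biological replicates by the labels.

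P450 enzymes are heme proteins that oxidise foreign chemicals and endogenous lipids, drawing electrons from the reductase encoded by Por. In lung, Cyp2f2 is a hallmark of club cells, the secretory cells of the airway, and Cyp4b1 and Cyp2b10 are also prominent pulmonary P450 genes. Cyp1a1 and Cyp1b1 are classic targets of Ahr, a ligand-activated transcription factor that pairs with Arnt and binds the xenobiotic response element (XRE). Nrf2, the product of Nfe2l2, acts through the antioxidant response element (ARE) on conjugating and antioxidant enzymes, and cross-talk between the Ahr and Nrf2 pathways is known for genes such as Nqo1.

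The promoters of the 3 measured genes whose window held an XRE core are shown, because 2 of them, Cyp1a1 and Cyp1b1, are classic Ahr targets. Each runs from 250 bases before to 50 bases after the RefSeq start (GRCm38.p6), 5′ to 3′ on the gene's strand, and the capitals mark the core GCGTG or its reverse complement CACGC. Cyp1a1 lies on the plus strand at chr9:57697363-57697662, Cyp1b1 on the minus strand at chr17:79715012-79715311 and Cyp2b10 on the plus strand at chr7:25897408-25897707.
Cyp1a1: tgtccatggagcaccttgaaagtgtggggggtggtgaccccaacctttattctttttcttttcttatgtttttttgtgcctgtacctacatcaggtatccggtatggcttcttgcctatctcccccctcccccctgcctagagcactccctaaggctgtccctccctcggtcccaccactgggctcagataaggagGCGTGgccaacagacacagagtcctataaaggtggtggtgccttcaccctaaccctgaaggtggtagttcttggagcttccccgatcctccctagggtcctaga
Cyp1b1: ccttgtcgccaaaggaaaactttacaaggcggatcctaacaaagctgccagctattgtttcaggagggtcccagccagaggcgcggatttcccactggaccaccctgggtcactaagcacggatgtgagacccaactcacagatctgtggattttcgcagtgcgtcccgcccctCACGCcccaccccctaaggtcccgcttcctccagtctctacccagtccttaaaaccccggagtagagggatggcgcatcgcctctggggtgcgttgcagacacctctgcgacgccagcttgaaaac
Cyp2b10: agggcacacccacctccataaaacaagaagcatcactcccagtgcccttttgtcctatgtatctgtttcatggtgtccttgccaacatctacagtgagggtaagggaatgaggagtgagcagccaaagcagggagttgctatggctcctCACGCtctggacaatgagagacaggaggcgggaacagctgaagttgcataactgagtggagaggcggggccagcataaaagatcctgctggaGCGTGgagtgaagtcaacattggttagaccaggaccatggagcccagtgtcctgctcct
The core began at position -54 from the start in Cyp1a1, at -76 in Cyp1b1 and at -101 and -9 in Cyp2b10. The window of Por, not shown because the gene was not measured, held the core at -202, -62 and -24. The windows of Cyp2f2, Cyp2s1 and Cyp4b1 held no XRE core, and the ARE core TGACNNNGC, searched on both strands like the XRE core, was found in none of the windows of the 6 measured P450 genes. Ahr was not matched in the promoter table. Over all 32851 promoters of the same length, 32.4% held the XRE core and 12.4% the ARE core, so a match to these short motifs is common. The 2 motifs can overlap, and a match describes letters and not a bound site.

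Values are signals after quantile normalization, given per library in the order of replicates 1, 2 and 3, and differences are knockout minus wild type on the log2(signal + 16) scale, which understates changes of dim genes. A fold is the ratio of signal + 16. Overlap describes the 3 libraries of each group only, as the share of all probe sets without overlap was not counted. Each SE uses 1 spread shared by the 22 groups, and each adjusted p from a limma model fitted to 45037 probe sets with Benjamini-Hochberg adjustment and a threshold of 0.05. The brighter probe set of Nfe2l2, the targeted gene, followed the genotype labels. Its log2 level had a range of 10.49 to 12.25 over 33 wild-type libraries, and none of 33 knockout libraries exceeded 8.26. The second probe set did not follow them: it was 9.91, 10.19 and 10.05 in knockout PND0 against 6.62, 6.51 and 7.22 in wild type, and 8.57 to 9.37 in knockout PND3 against 6.45 to 7.02. The 24 arrays of PND1 to PND4 had been deposited on another scale than the other 42 (2% trimmed means of 171.7 to 307.1 against 500.0), so pairs of ages were compared only within each of these sets. F tests over the 11 ages and correlations over the group means span both.

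Several libraries stood apart. In knockout E13.5, the mean of a 10-gene club cell list was 9.76, 7.40 and 8.66 on the log2 scale, against 6.72 to 6.92 in wild type. In wild-type PND14, replicate 2 had a thymus and T cell list mean of 12.38 against 7.24 and 9.73 in the others, and a cell cycle list mean of 11.74 against 8.95 and 9.49. The knockout libraries labelled E18.5 were more like the wild type of the age before: they differed from wild-type E17.5 in 0.253% of probe sets and from wild-type E18.5 in 8.74%. For those labelled E17.5 the shares were closer, 0.81% against wild-type E18.5 and 1.23% against wild-type E17.5. In wild type the step between these 2 ages called 1.23%. Whether the labels were exchanged was not tested. Lung epithelium itself was represented in every adult library, with a type 2 cell list mean of 13.40 to 13.75 at PND42.

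**Figure D1:**
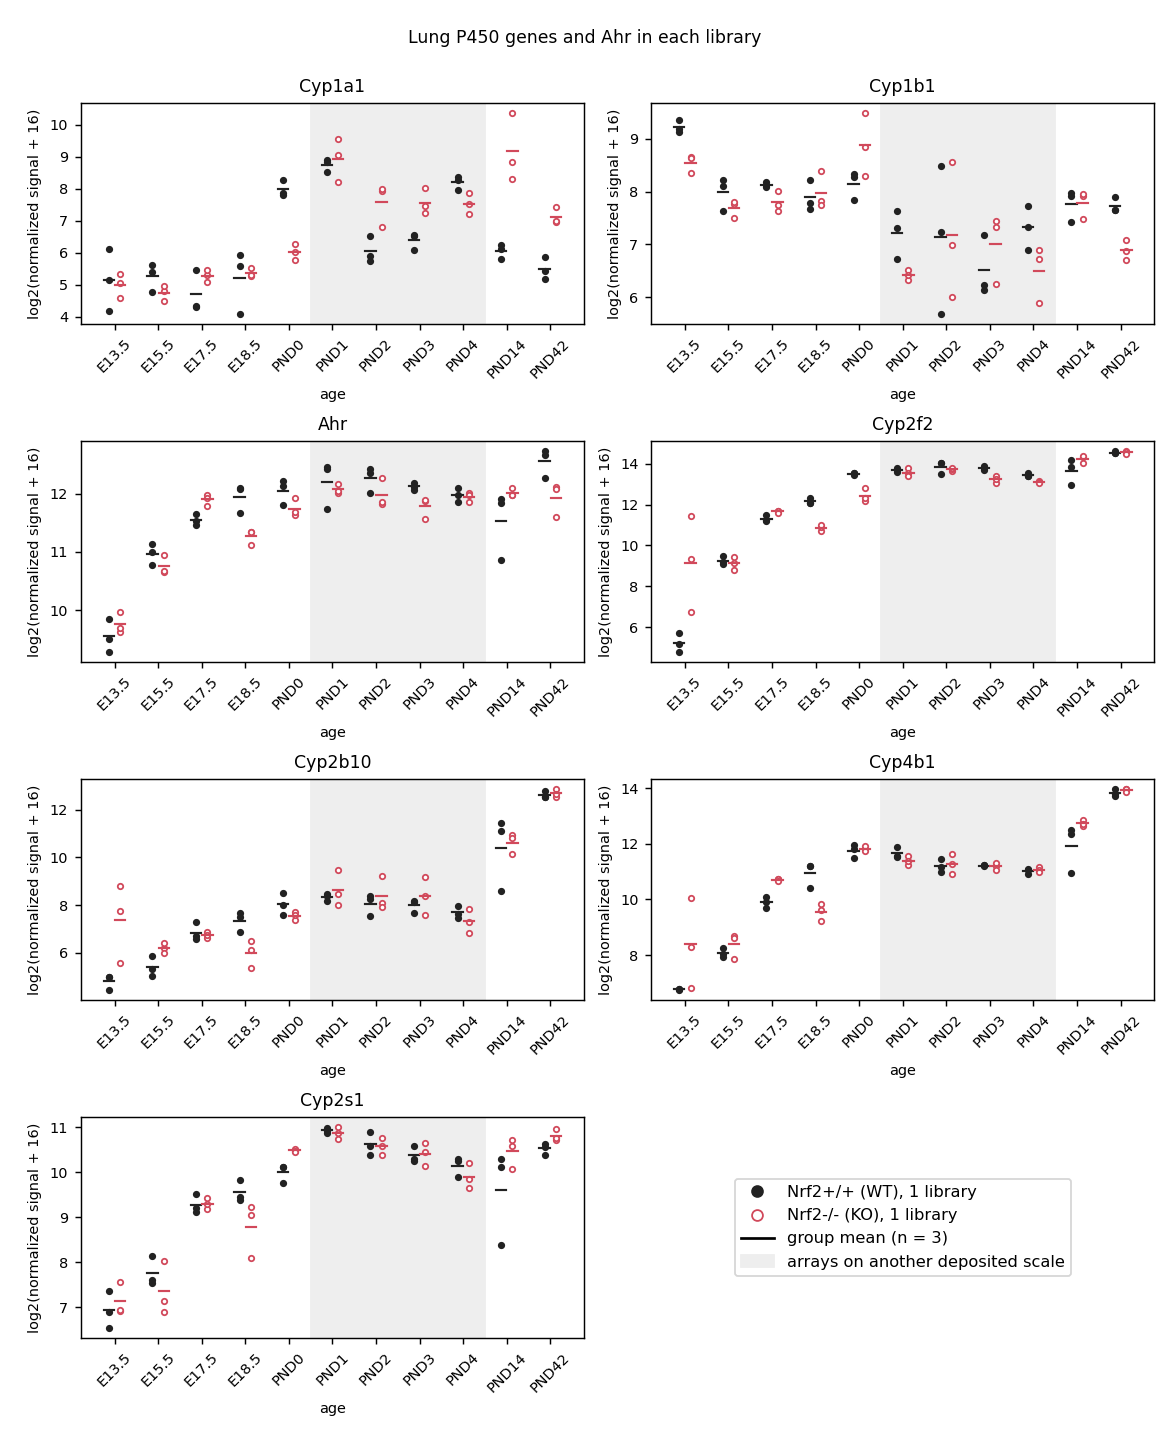
Each panel plots 1 gene as log2(normalized signal + 16) against age, with a filled point for each wild-type library, an open point for each knockout library and a bar for the mean of 3. Cyp2f2, Cyp2b10 and Cyp4b1 climb to their highest means at PND42, Cyp1a1 peaks around birth in wild type and has a second high mean at PND14 in knockouts, and the shaded ages PND1 to PND4 were deposited on another scale.

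Cyp1a1, which oxidises polycyclic aromatic hydrocarbons, was dim before birth and bright in the wild-type newborn. Its wild-type signals were 32.0, 44.9 and 1.14 at E18.5 and 295, 216 and 208 at PND0, so all 3 newborn libraries lay above all fetal ones. The rise was 2.78 ± 0.41 (SE, n = 3 per group, adjusted p = 5.1e-06). Signals near the floor before birth, from 1.14 to 54.2 in the 12 wild-type fetal libraries, carry no detection call here and their order is not read.

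In the wild-type mice after birth the level varied from day to day. At PND1 the signals were 446, 460 and 352, at PND2 they were 44.0, 37.1 and 77.1, at PND3 77.7, 75.7 and 52.3, and at PND4 235, 314 and 293. The fall from PND1 to PND2 passed the threshold (-2.70 ± 0.41, adjusted p = 9.7e-06), and the difference between PND3 and PND4 did not (1.82 ± 0.41, adjusted p = 0.32), although the libraries of these ages did not overlap. In limma 0 probe sets on the array passed between PND3 and PND4 in wild type, where 2197 had an unadjusted p under 0.05, against 5.85% called between PND1 and PND2. By PND14 the signals were 59.1, 40.1 and 54.0 (-1.93 ± 0.41 from PND0, adjusted p = 0.00058), and by PND42 they were 19.9, 42.5 and 27.2.

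Knockouts had a different course. At PND0 the knockout signals of Cyp1a1 were 38.5, 48.2 and 62.1, all below the 3 wild-type libraries. The level was 3.9-fold lower (-1.96 ± 0.41, adjusted p = 0.00048), and the call held in each of 78 alternative analyses, with adjusted p from 7e-05 to 0.028. It was the only called gene of the 7 at this age, where 10.7% of all probe sets were called. In a fit of the 6 arrays of PND0 alone, which called 8.54% of all, Cyp2f2 and Cyp2s1 (0.48, adjusted p = 0.034) passed as well. Thymus genes were high in wild-type replicate 2 (list mean 10.18 against 4.78 and 7.54), where the Cyp1a1 signal was 216 against 295 and 208. The part of the thymus genes in the difference was not tested.

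At PND1 the knockout signals of Cyp1a1 ran from 284 to 733 and overlapped the 352 to 460 of wild type. The log2 means were 8.94 and 8.76, and the difference was not called. At PND2 and PND3 the direction was opposite to that at PND0. The knockout signals were 226, 242 and 96.8 at PND2 and 134, 159 and 243 at PND3, above every wild-type library of the same age. The difference passed at PND2 (1.52 ± 0.41, adjusted p = 0.015, 5.96% of all called) and not at PND3 (1.18 ± 0.41, adjusted p = 0.061), where it passed in 9 of 78 alternatives, among them the 6 arrays of that age alone (adjusted p = 0.031). The PND2 call was lost when wild-type replicate 1 (1.45, adjusted p = 0.057) or replicate 2 (1.36, 0.084) was left out, when knockout replicate 1 (1.35, 0.11) or replicate 2 (1.31, 0.071) was, and under 6 other settings, over a range of adjusted p from 0.0058 to 0.18. At this age the thymus and T cell list mean was 11.27, 8.09 and 10.27 in knockouts and 5.89 to 6.59 in wild type, and the liver list mean reached 14.42 in wild-type replicate 2 against 4.94 to 11.92 in the other libraries, and their part in the result was not tested. At PND4 the knockout libraries (133, 168 and 217) were all below wild type again, without passing (-0.67 ± 0.41, adjusted p = 0.64).

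The widest gap in Cyp1a1 came at PND14. Knockout signals were 305, 439 and 1300 against 59.1, 40.1 and 54.0, and the lowest knockout library stood far above the highest wild-type one. The level was 8.68-fold higher (3.12 ± 0.41, adjusted p = 1.2e-06). Without wild-type replicate 2, the library rich in thymus genes, it was 2.99 ± 0.45 (adjusted p = 6.5e-05), and without knockout replicate 3, the brightest, 2.52 (adjusted p = 0.00028). Only in a fit of the 6 arrays of that age alone, where 1 of 45037 probe sets passed, was the call lost (adjusted p = 0.43, range over all alternatives 2.5e-08 to 0.43).

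At PND42 the knockout level of Cyp1a1 was still above wild type. The signals were 157, 108 and 111 against 19.9, 42.5 and 27.2, a difference of 1.63 ± 0.41 (adjusted p = 0.007) with no overlap. It missed the threshold without wild-type replicate 1 (1.47, adjusted p = 0.052) and with a pseudocount of 1 (2.07, adjusted p = 0.072), and its adjusted p otherwise went down to 0.0015. Within the knockouts, the gene rose from PND0 to PND14 (3.15 ± 0.41, adjusted p = 1.4e-08) and then fell to PND42 (-2.05 ± 0.41, adjusted p = 0.0003).

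**Figure D2:**
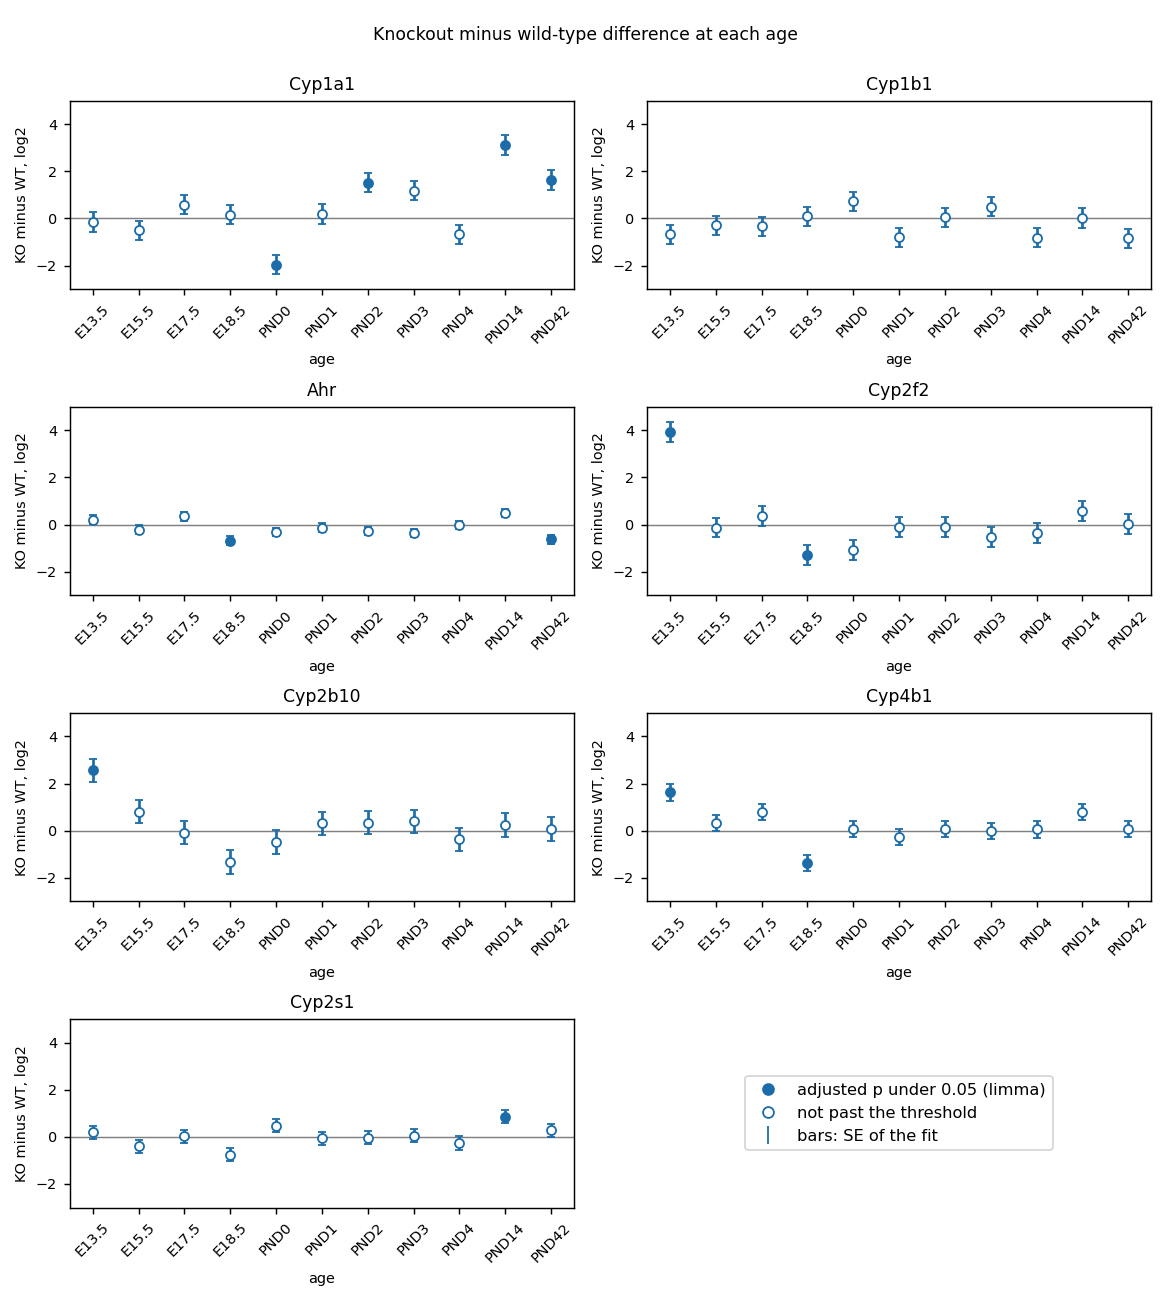
Each panel plots the knockout minus wild-type difference of 1 gene (log2, bars: SE of the fit, n = 3 per group) against age, filled where the adjusted p was under 0.05. Cyp1a1 goes from -1.96 at PND0 to 3.12 at PND14, and the filled points of Cyp2f2, Cyp2b10 and Cyp4b1 lie at E13.5 or E18.5.

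The other genes of the Ahr battery were examined beside Cyp1a1. Of the 8 measured genes in a list of Ahr targets, partners and regulators, which includes Nfe2l2 itself, 1 was higher and 1 lower in knockouts at PND14, beside 3.29% of all probe sets higher and 4.91% lower, and the median difference was 0.27 against 0.02 over all. Tiparp, an ADP-ribosyltransferase that restrains Ahr, was higher (0.48 ± 0.13, adjusted p = 0.017), and the lower gene was Nfe2l2. Ahrr, the Ahr repressor (0.36), Cyp1a2 (0.26), the aldehyde dehydrogenase gene Aldh3a1 (0.87, adjusted p = 0.072) and Nqo1 (-0.28) did not pass. Without wild-type replicate 2, the share of all probe sets called at PND14 fell from 8.2% to 1.27%. The genes of this list, Tiparp among them, were not followed in that fit.

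At PND0, where Cyp1a1 was lower, Tiparp was higher (0.53 ± 0.13, adjusted p = 0.0042). Nqo1, a quinone reductase under both Ahr and Nrf2, was lower there (-0.84 ± 0.21, adjusted p = 0.0038), and so was Arnt2, a second partner of Ahr (-0.82 ± 0.19, adjusted p = 0.0024). The list had 1 higher and 3 lower genes at this age, Nfe2l2 among the lower ones, beside 5.07% of all probe sets higher and 5.66% lower, with a median of -0.24 against 0.00. At PND42 Nfe2l2 was the lower gene and none was higher, and Tiparp stood at 0.13 and Ahrr at 0.33. Thus Tiparp and Cyp1a1 lay in opposite directions at PND0 and in the same direction at PND14.

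**Figure D3:**
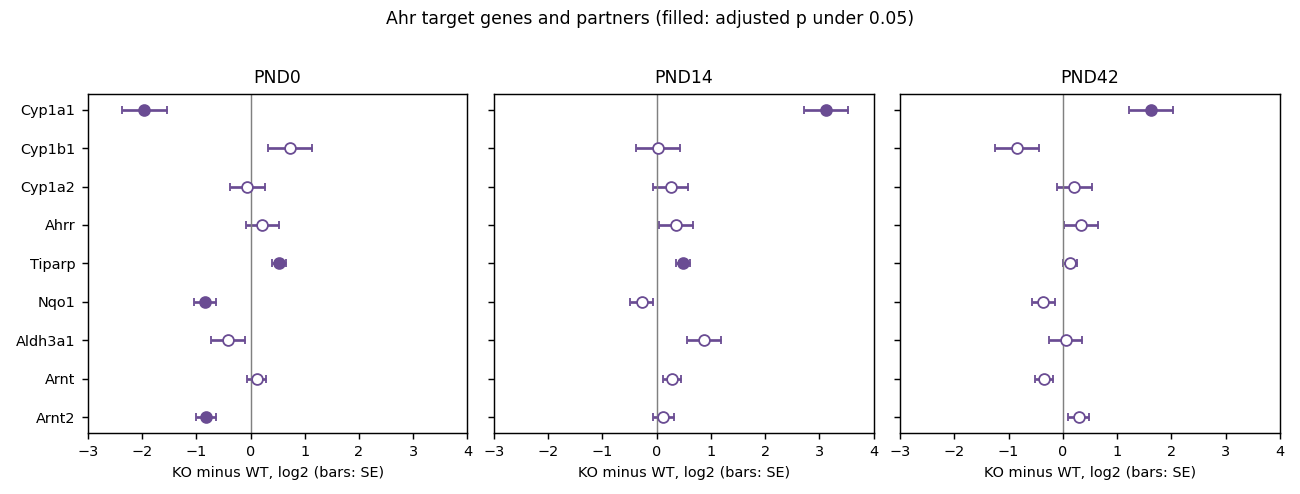
The panels plot the knockout minus wild-type difference (log2, bars: SE, n = 3 per group) of Cyp1a1, Cyp1b1 and 7 other Ahr targets or partners at PND0, PND14 and PND42, filled where the adjusted p was under 0.05. Cyp1a1 is at -1.96, 3.12 and 1.63, while the other genes lie between -0.85 and 0.87 at these ages.

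Cyp1b1, also a classic Ahr target and a metaboliser of oestrogens and polycyclic hydrocarbons, did not show the course of Cyp1a1. It was highest in the youngest wild-type lungs, at 546, 641 and 564 at E13.5 against 185, 185 and 223 at PND42. All E13.5 libraries lay above all those of PND42, and the gene fell in both genotypes, with a difference of -1.49 ± 0.41 in wild type (adjusted p = 0.0021) and of -1.66 ± 0.41 in knockouts (adjusted p = 0.00061). The second probe set of Cyp1b1, which was dimmer, stood at -0.87 in wild type and did not pass (adjusted p = 0.059). In knockouts it stood at -0.86 and did not pass either (adjusted p = 0.061). The third, dimmer still, stood at -0.2 in wild type and 0.29 in knockouts without passing.

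By limma, the knockout difference of Cyp1b1 passed at 0 of the 11 ages, while unadjusted p-values were under 0.05 for 2 of them. At PND14, where Cyp1a1 differed most, Cyp1b1 stood at 224, 232 and 164 in knockouts and 225, 235 and 155 in wild type, and these values overlapped (0.02 ± 0.41). At PND42 it was 101, 120 and 87.9 against 185, 185 and 223, with all knockout libraries lower and an adjusted p of 0.27 (-0.85 ± 0.41). With the 6 arrays of PND42 alone, which called 5.47% of all probe sets, it passed (adjusted p = 0.031). An adjusted p above the threshold does not show equal levels.

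Ahr itself climbed through gestation. The wild-type signals were 713, 611 and 905 at E13.5, 2240, 2040 and 1730 at E15.5 and 4480, 3550 and 4760 at PND0, with no overlap between these ages. It rose from E13.5 to E15.5 (1.42 ± 0.18, adjusted p = 1.2e-07) and over the whole series to PND42 (3.01 ± 0.18, adjusted p = 3.6e-20). The second, dimmer Ahr probe set rose less over the same span (1.30 ± 0.24, adjusted p = 1e-05). At PND14 the wild-type libraries were 3850, 1840 and 3650, the low one being replicate 2, which stood apart; the fall from PND0 (-0.52, adjusted p = 0.046) was -0.17 without that library (adjusted p = 0.59) and was also lost without wild-type PND0 replicate 1 (adjusted p = 0.15) or 3 (adjusted p = 0.19).

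Ahr was lower in knockouts at 2 ages. At PND42 the signals were 3080, 4420 and 4310 against 4940, 6500 and 6760, all knockout libraries below wild type (-0.63 ± 0.18, adjusted p = 0.025). The call was lost when wild-type replicate 2 (-0.57, adjusted p = 0.11), wild-type replicate 3 (-0.54, 0.14) or knockout replicate 1 (-0.46, 0.20) was left out. It was also lost on the second probe set (-0.56, 0.20), as deposited (-0.54, 0.094) and with array medians subtracted (-0.51, 0.16). A limma fit of the 6 arrays of PND42 alone lost it too (-0.63, adjusted p = 0.053), and the full range was 0.0046 to 0.2. In the libraries labelled E18.5 it was 2220, 2570 and 2580 against 4310, 4360 and 3230 (-0.68 ± 0.18, adjusted p = 0.01), and with the knockout labels E17.5 and E18.5 exchanged it was -0.05 (adjusted p = 0.97). Cyp1a1 was thus higher at PND42 while Ahr was lower, and neither Ahr nor Arnt passed at PND14.

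Cyp2f2, which activates naphthalene and other small aromatic compounds in club cells, showed the widest climb of the 7 genes in wild type. Its signals were 37.3, 20.3 and 12.2 at E13.5, 563, 704 and 539 at E15.5, 2330, 2440 and 2860 at E17.5 and 23500, 24800 and 23100 at PND42. Each of these ages lay wholly above the one before. The steps were 4.02 ± 0.42 from E13.5 to E15.5 (adjusted p = 1.4e-09), 2.05 ± 0.42 to E17.5 (adjusted p = 0.00023) and 9.29 ± 0.42 over the whole span (adjusted p = 1e-24). Since the samples are whole lungs, more cells of a type cannot be told apart from more RNA per cell. The mean of the club cell list, which holds no member, rose alongside, from 6.72 to 6.92 in the wild-type E13.5 libraries to 8.79 to 9.22 at E15.5 and 11.20 to 11.83 at E17.5.

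Cyp4b1, which hydroxylates fatty acids and activates several lung toxicants, climbed in a similar way. The wild-type signals were 93.4, 92.7 and 93.3 at E13.5, 247, 294 and 230 at E15.5, 943, 824 and 1080 at E17.5 and 13600, 14400 and 16100 at PND42. The rise over the span was 7.07 ± 0.34 (adjusted p = 9.5e-24), and it included a step from PND14 to PND42 (1.91 ± 0.34, adjusted p = 4.9e-05, and 1.42 with adjusted p = 0.0046 without wild-type PND14 replicate 2). The step from E13.5 to E15.5 (1.31 ± 0.34, adjusted p = 0.0088) missed the threshold without wild-type E15.5 replicate 2 (adjusted p = 0.051).

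At E13.5 these genes were higher in knockouts, in libraries that were unlike each other. Cyp2f2 stood at 2750, 90.8 and 622 in knockouts, each above the wild-type range of 12.2 to 37.3, and the spread among the knockouts was wide (SD 2.35 on the log2 scale, against 0.46 in wild type). The difference was 3.92 ± 0.42 (adjusted p = 2.5e-08). Wild-type signals lay near the floor, so its size depends on the pseudocount, and it was 4.61 with a pseudocount of 1 and 2.95 with 64. It was 2.78 without knockout replicate 1 (adjusted p = 1.1e-07) and 5.13 without knockout replicate 2. Cyp4b1 stood at 1060, 96.3 and 296 (1.62 ± 0.34, adjusted p = 0.0045) and lost its call without replicate 1 (0.78, adjusted p = 0.17). Cyp2b10 stood at 426, 31.1 and 203 against 16.0, 15.2 and 6.01 (2.56 ± 0.49, adjusted p = 0.0015, and 1.86 with adjusted p = 0.049 without replicate 1). Its second probe set also passed limma's test (2.12, adjusted p = 0.0064). The third did not pass (1.98, adjusted p = 0.05), and on it the knockout and wild-type libraries overlapped. The 3 called genes of 7 compare with 1.53% of all probe sets at this age.

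The order of the knockout E13.5 libraries, replicate 1 above 3 above 2, was the same for Cyp2f2, Cyp4b1 and Cyp2b10, and it was also that of the club cell list (9.76, 8.66 and 7.40), the type 1 cell list (10.32, 9.44 and 8.70) and the type 2 cell list (10.66, 9.34 and 7.78). The brighter Nfe2l2 probe set had the same order, at 8.26, 6.76 and 5.43 against 10.49 to 10.85 in wild type. Wild-type replicate 2 differed in other ways, with a liver list mean of 10.33 against 7.32 and 7.18. The part of these in the differences was not tested. With the 6 arrays of E13.5 alone in the fit, 0 of 45037 probe sets passed in limma while 4101 had an unadjusted p under 0.05, and the adjusted p of Cyp2f2, Cyp2b10 and Cyp4b1 became 0.39, 0.43 and 0.52. Over all alternatives the adjusted p of Cyp2f2 ranged from 2.8e-19 to 0.39.

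**Figure D4:**
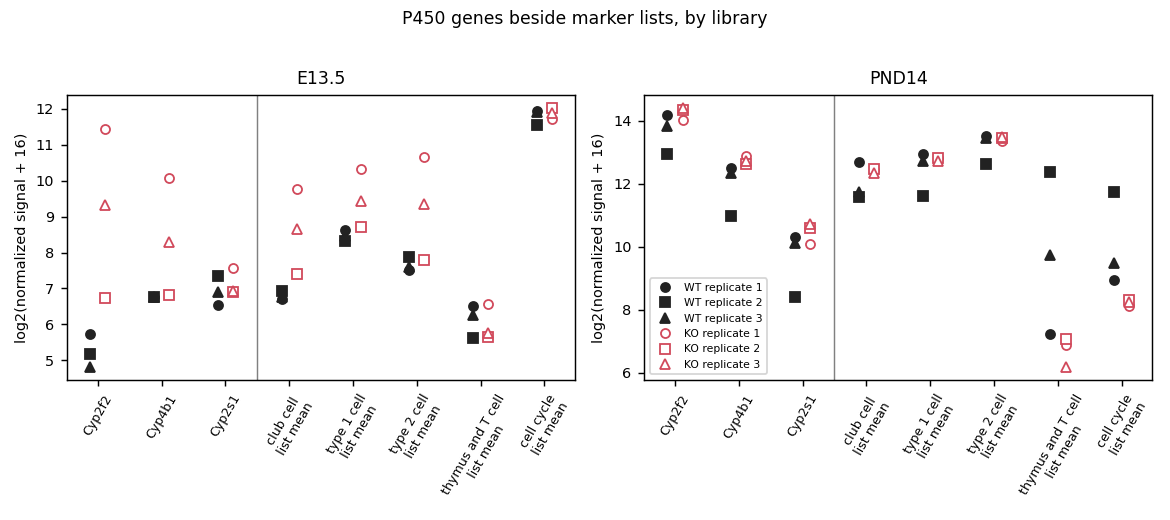
The panels plot log2(normalized signal + 16) of Cyp2f2, Cyp4b1 and Cyp2s1 and the means of 5 marker lists in each library at E13.5 and PND14, with a symbol for each replicate. At E13.5 knockout replicate 1 is highest in the 3 genes and in the club, type 1 and type 2 cell lists, and at PND14 wild-type replicate 2 is lowest in the 3 genes and highest in the thymus and cell cycle lists.

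At E18.5 the direction was opposite, and this rests on the age labels. Cyp2f2 stood at 1650, 1880 and 2040 in the knockout libraries labelled E18.5 against 5170, 4320 and 4270 (-1.30 ± 0.42, adjusted p = 0.043), with no overlap. Cyp4b1 stood at 580, 901 and 775 against 2370, 2350 and 1360 (-1.39 ± 0.34, adjusted p = 0.0051). With Ahr these were the 3 called genes of 7, where 8.74% of all probe sets were called, and the median difference was -0.76 for the members and -0.01 for all probe sets.

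When the knockout E17.5 and E18.5 labels were exchanged, 0 of the 7 genes passed limma's test at either age, and 0 unadjusted p-values were under 0.05. Few probe sets were called at all in these exchanged comparisons, 0.253% against wild-type E17.5 and 0.81% against wild-type E18.5. Cyp2f2 then stood at -0.45 against wild-type E17.5 and -0.50 against wild-type E18.5, and Cyp4b1 at -0.34 and -0.24. Within knockouts as labelled, Cyp4b1 fell from E17.5 to E18.5 (-1.15 ± 0.34, adjusted p = 0.035) and Ahr too (-0.63 ± 0.18, adjusted p = 0.028), whereas in wild type the same step was 1.05 and 0.40 with neither past the threshold. The Cyp2f2 call was also lost when any of the 6 libraries was left out (adjusted p from 0.059 to 0.16), as deposited (0.06), with array medians subtracted (0.073), with a pseudocount of 1 (0.06) and with no intensity trend (0.059), the Cyp4b1 call without knockout replicate 1 (adjusted p = 0.057), and the Ahr call without that library (0.081) or wild-type replicate 1 (0.071) or 2 (0.083) and on the second Ahr probe set (-0.27, 0.62). With the 6 arrays of E18.5 alone, which called 3.79% of all probe sets, the same 3 genes passed (adjusted p = 0.0045, 0.029 and 0.038 for Cyp2f2, Cyp4b1 and Ahr).

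After birth 0 of 7 differences of Cyp2f2 passed in the limma model of all 22 groups, with 1 unadjusted p under 0.05. At PND0, PND3 and PND4 all knockout libraries lay below all wild-type ones. The shares of all probe sets called at these ages were 10.7%, 8.09% and 0.484%, and the shares without overlap were not counted. At PND0 Cyp2f2 stood at 7240, 4660 and 5040 against 11900, 11000 and 12100, with no overlap (-1.07 ± 0.42, adjusted p = 0.1). At PND3 the signals were 10800, 8470 and 9650 against 14900, 13900 and 13000, again without overlap (-0.54, adjusted p = 0.52). With the 6 arrays of an age alone, Cyp2f2 passed as lower at PND0 (adjusted p = 0.0047), PND3 (0.012) and PND4 (-0.36, 0.049), so these calls depend on which arrays are fitted together. At PND3 and at PND4 this was the only 1 of 78 alternatives that passed. The part of the wide spread of knockout E13.5 (SD 2.35) was not tested. The PND0 call was also made without knockout E13.5 replicate 1 (adjusted p = 0.0066) or replicate 2 (0.0024), and with array weights (0.017). The club cell list mean at PND0 was 12.17 to 12.81 in knockouts and 12.51 to 12.58 in wild type, and at PND3 it was 10.70 to 11.31 and 12.10 to 12.42. At PND42 Cyp2f2 stood at 24900, 24500 and 23000 against 23500, 24800 and 23100, and these overlapped (0.02 ± 0.42).

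Cyp2b10, the mouse gene best known for induction by the nuclear receptor CAR in liver, rose mostly after birth. Its wild-type signals were 16.0, 15.2 and 6.01 at E13.5, 346, 242 and 178 at PND0 and 5980, 5820 and 7060 at PND42. All PND42 libraries lay above all those of PND0 and PND14. The rise from E13.5 to PND42 was 7.81 ± 0.49 (adjusted p = 2.2e-19), and the 2 other probe sets of the gene rose by 7.38 and 7.46. The brightest probe set and the one that rose by 7.38 may also match related transcripts, so part of their signal can come from near-identical genes. Cyp2b9 and Cyp2b19, which have probe sets of their own, stood at 0.22 and 0.08 over this span and did not pass. The part of related transcripts in the signal was not tested.

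From PND0 to PND14 Cyp2b10 rose in both genotypes, by 2.34 ± 0.49 in wild type (adjusted p = 0.00055) and 3.07 ± 0.49 in knockouts (adjusted p = 1.6e-06). The wild-type PND14 libraries stood at 2780, 363 and 2220, and without the low replicate 2 the rise was 3.25. The next step, to PND42, was 2.24 in wild type (adjusted p = 0.00081), 1.33 without that library (adjusted p = 0.064), and 2.06 in knockouts (adjusted p = 0.0027). At PND42 the knockouts stood at 7400, 5990 and 6400 and overlapped wild type (0.07 ± 0.49, adjusted p = 0.98). Apart from E13.5, 0 of 10 ages gave a called knockout difference for Cyp2b10 in limma, with 1 unadjusted p under 0.05, and in the libraries labelled E18.5 it was -1.33 (adjusted p = 0.083), with all 3 below wild type.

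Cyp2s1, an extrahepatic P450 of epithelia, rose mainly before birth. The wild-type signals were 263, 179 and 169 at E15.5 and 574, 538 and 716 at E17.5, with no overlap (1.52 ± 0.28, adjusted p = 5e-05). By PND0 they were 1090, 856 and 1100, and at PND42 they were 1320, 1560 and 1500. The rise over the span was 3.59 ± 0.28 in wild type and 3.67 ± 0.28 in knockouts (adjusted p = 6.2e-16 and 3.3e-16).

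The knockout difference of Cyp2s1 passed at PND14 alone, with overlapping groups. The knockouts stood at 1070, 1530 and 1660 against 1250, 318 and 1100, where the low library was again wild-type replicate 2 (0.86 ± 0.28, adjusted p = 0.047). Without that library the difference was 0.25 (adjusted p = 0.77), and the call was lost in 29 of 78 alternatives. Cyp4b1 (0.80, adjusted p = 0.14) and Ahr (0.48, adjusted p = 0.089) also stood higher in knockouts at PND14 without passing, and fell to 0.32 and 0.14 without the same library. Cyp1a1 was then the only called gene of 7, beside 1.27% of all probe sets, compared with 2 of 7 and 8.2% with all libraries.

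Averaged over the 11 ages, 1 of the 7 genes passed, where 10.6% of all probe sets did. This was Cyp1a1, at 1.38-fold higher in knockouts (0.46 ± 0.12, SE, n = 33 per genotype, adjusted p = 0.0086, range 0.0018 to 0.15), an average of opposite directions that was higher at 7 of 11 ages. Without PND1 to PND4 it was 0.41 (adjusted p = 0.15), and none of the 7 passed in limma, beside 6.12% of all and with 3 unadjusted p under 0.05. Ahr averaged -0.14 ± 0.05 (adjusted p = 0.081, range 0.00092 to 0.83). It passed without wild-type PND14 replicate 2 (-0.17, adjusted p = 0.0078) or wild-type PND1 replicate 1 (-0.16, adjusted p = 0.029), without E13.5 (-0.18, 0.027), as deposited (-0.19, 0.028) and with array weights (-0.20, 0.00092), and on its second probe set it was 0.04. Cyp2f2 averaged 0.11 over all ages and, without E13.5, -0.27 ± 0.05 (adjusted p = 0.00046), where 12.9% of all probe sets passed. In the other direction it passed without knockout E13.5 replicate 2 (0.22, adjusted p = 0.049), as did Cyp4b1 (0.27, 0.02), so the direction of Cyp2f2 in the average depends on the E13.5 libraries.

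The size of the knockout difference varied with age for 5 of the 7 genes, by an F test over the 11 ages that called 28.3% of all probe sets. They were Cyp1a1 (F = 11.4, adjusted p = 1e-07), Cyp2f2 (10.6, 2.5e-07), Cyp4b1 (4.85, 0.00084), Ahr (4.25, 0.0023) and Cyp2b10 (3.83, 0.0048). Cyp2s1 (2.40, adjusted p = 0.066) and Cyp1b1 (1.78, adjusted p = 0.19) did not pass, with lowest adjusted p over the alternatives of 0.011 and 0.0048. Without E13.5, E17.5 and E18.5 the test called Cyp1a1 and Cyp2f2. Cyp2b10 lost its call without E13.5 alone (1.98, adjusted p = 0.15) and Cyp4b1 without E17.5 and E18.5 (2.59, adjusted p = 0.084). Counting every gene at every age, 12 of 77 differences passed, 7 higher and 5 lower, against 4.8% of all probe sets. None of the 7 was called at E15.5, E17.5, PND1, PND3 or PND4, where the array-wide shares were 0.127%, 1.23%, 2.04%, 8.09% and 0.484% and where 0, 1, 0, 1 and 1 of the 7 had an unadjusted p under 0.05 in limma, and 2 were called at PND42, beside 5.68%. Fitted with the 6 arrays of each age alone, 14 of the 77 passed, of which 5 had passed in the model of all groups. At E17.5 these were Cyp4b1 (0.81, adjusted p = 0.0027), Ahr (0.35, 0.032) and Cyp2f2 (0.35, 0.046), beside 4.25% of all probe sets, at PND3 Cyp1a1 and Cyp2f2, beside 8.18%, and at PND4 Cyp2f2, beside 0.444%.

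Age itself moved all 7 measured genes in both genotypes on their brightest probe sets (F test, 65.2% of all probe sets in wild type and 70.6% in knockouts). For Cyp1b1 the second probe set did not pass this test (adjusted p = 0.14 in wild type and 0.085 in knockouts). The third, the dimmest, passed in knockouts alone (0.7 in wild type and 0.04 in knockouts). Of 70 wild-type comparisons of ages 23 passed, 19 higher and 4 lower, beside 10.8% of all probe sets, and in knockouts 27 of 70, 22 higher and 5 lower, beside 15.8%. From E13.5 to E15.5 in wild type Ahr, Cyp2f2 and Cyp4b1 rose, beside 7.61% of all. From E15.5 to E17.5, 5 genes rose, Ahr, Cyp2b10, Cyp2f2, Cyp2s1 and Cyp4b1, where 18% of all probe sets were called. From E18.5 to PND0 the called gene in wild type was Cyp1a1, beside 4.15% of all. In knockouts that step called Ahr, Cyp2b10, Cyp2f2, Cyp2s1 and Cyp4b1, beside 25.6%, and it starts from the libraries labelled E18.5. From PND0 to PND14, 3 genes passed in wild type (1 higher, 2 lower), beside 13.6%, and 5 in knockouts (4 higher, 1 lower), beside 30.7%. From PND14 to PND42, 4 rose in wild type, beside 14.8%, and 3 passed in knockouts (2 higher, 1 lower), beside 12%. In knockouts, Ahr alone rose from E13.5 to E15.5 (0.99, beside 2.84%), 4 genes rose from E15.5 to E17.5 (beside 23.8%) and 2 fell from E17.5 to E18.5 (beside 4.77%). None of the 7 passed in limma in wild type from E17.5 to E18.5 (beside 1.23%, with 2 unadjusted p under 0.05) or from PND2 to PND3 (beside 0.586%, with 0). The same held in knockouts between successive days from PND1 to PND4, where 2.82%, 6.51% and 5.51% of all were called and 1, 0 and 1 of the 7 had an unadjusted p under 0.05. From E13.5 to PND42, 6 of 7 passed in wild type, beside 42.3% of all, and 7 of 7 in knockouts, beside 43.4%.

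The rest of the P450 system was described from lists of named genes. Of 31 other measured P450 genes, 0 passed in the average over ages in limma, beside 10.6% of all probe sets, and 8 had an unadjusted p under 0.05. At PND14 Cyp20a1 (0.60) and Cyp39a1 (0.65), a sterol hydroxylase, were higher, beside 3.29% of all probe sets. These 2 genes were not followed without wild-type PND14 replicate 2. At PND42 Cyp26b1, which breaks down retinoic acid, was lower (-1.36 ± 0.34, adjusted p = 0.008), beside 3.22% of all probe sets. From E13.5 to PND42 in wild type 12 of the 31 rose and 2 fell, beside 19.9% of all probe sets higher and 22.5% lower, with a median of 0.37 against -0.04 over all probe sets. Cyp4v3 rose by 3.91, Cyp27a1, a sterol 27-hydroxylase, by 2.91 and Cyp2d22 by 2.62, while Cyp51, of cholesterol synthesis, fell by 1.08 on the log2 scale.

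Heme supply and electron transfer partners of the P450s were measured for 14 of 16 genes listed. Alas1, which makes the first committed step of heme synthesis, was higher in knockouts at PND14 (0.60 ± 0.14, adjusted p = 0.0056) and PND42 (0.60 ± 0.14, adjusted p = 0.0047), where Cyp1a1 was higher too. Its PND14 difference was not followed without wild-type PND14 replicate 2. Over all ages 1 gene of this list was higher, Alas1 at 0.15, and 4 were lower, among them the heme oxygenase gene Hmox1 (-0.32) and the cytochrome b5 gene Cyb5a (-0.10), with a median of -0.03 against 0.01. Over all probe sets 5.29% were higher and 5.27% lower in this average, which holds for the next counts too. Of 11 nuclear receptor and related regulator genes 2 were higher, Rxra (0.17) and Cebpa (0.28). Of 14 conjugation enzymes 6 were lower and none higher, with a median of -0.23.

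The course of each gene over the 22 group means was set beside those of 15751 other genes by Pearson correlation, as a description. Age and library scale are shared by all points. Cyp4b1 was most like Adgrf5 (r = 0.986), Cyp2s1 like Diaph1 (0.983), Cyp2f2 like Epas1 (0.979), Ahr like Cav1 (0.973) and Cyp2b10 like Ntn4 (0.968). The closest match was lower for Cyp1b1, with Acsl3 (0.891), and for Cyp1a1, with Ly6g6c (0.864). Among the members, Cyp2f2 ran with Cyp2s1 (0.932), Cyp4b1 (0.929) and Ahr (0.918), Cyp1b1 ran against all the others (-0.659 to -0.372), and Cyp1a1 and Ahr had an r of 0.52. Over the 14 group means of the other 42 arrays alone, the first 3 were 0.93, 0.962 and 0.903, Cyp1b1 ran from -0.641 to -0.267 with the others, and Cyp1a1 and Ahr had 0.45.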

How the data were processed

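Total RNA from homogenized lung was hybridised to 66 arrays in 22 groups of 3. The deposited values were linear intensity values, 1 per probe set and array, and GCOS is the program named per the submitters' processing notes. Its release, its algorithm and any scaling target are not given in the sources used here. Groups came from the sample titles and characteristics. No 2 arrays were identical (correlations between arrays of at most 0.9834, and at least 0.9264 within groups). The number of arrays limits the precision.

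Of 45101 probe sets, 64 controls were left out. The platform annotation gave 34945 of the others 1 gene symbol. A further 932 had more than 1 and 9160 had none, and these 2 kinds stayed unnamed. Values were quantile normalized, moved to log2(value + 16) and fitted in 1 limma model (limma 3.58.1, R 4.3.3, with data.table in its version 1.17.8). The model had a mean for each group, moderated variances with a trend on intensity, 44 residual and 6.69 prior degrees of freedom. Contrasts were knockout minus wild type on average and at each age, its dependence on age (F test), age in each genotype (F test) and 10 age steps per genotype. P-values are two-sided and adjusted over 45037 probe sets, with a threshold of 0.05. The model was tested on simulated data. Promoters came from RefSeq (GRCm38.p6). The plots were made in Python 3.11.15 with matplotlib 3.10.9.

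All 7 members, their other probe sets and the most similar genes by correlation were to be named, with list genes past the threshold or of a known role as examples. The members and the lists were chosen with earlier results of these data known. Replicate numbers did not pair the samples. The alternatives changed the pseudocount, normalization, variance model, dim-probe filter, weighting of arrays, replicate block, probe set, ages fitted, or left out 1 library.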

Additional observations from a re-analysis of the deposited data

Results flagged for a closer look

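The knockout difference was not equal over the ages for 5 genes, by limma's F test of the difference itself. The F values were 11.4 for Cyp1a1 (adjusted p = 1e-07), 10.6 for Cyp2f2 (adjusted p = 2.5e-07), 4.85 for Cyp4b1 (adjusted p = 0.00084), 4.25 for Ahr (adjusted p = 0.0023) and 3.83 for Cyp2b10 (adjusted p = 0.0048). Cyp1a1 kept the call in each of 81 alternative analyses (adjusted p 4.3e-09 to 0.023). For Cyp2f2 it was lost with PND1 to PND4 alone, and for Cyp4b1, Ahr and Cyp2b10 also without E13.5, E17.5 and E18.5 together. For Cyp2b10 it was lost without E13.5 alone (1.98, adjusted p = 0.15) and with a pseudocount of 64 (2.34, 0.071), and for Cyp4b1 without E17.5 and E18.5 (2.59, 0.084). The other probe sets of Cyp2b10 had adjusted p of 0.049 and 0.09, and that of Ahr 0.28.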

How the results depend on the processing

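Of 82 single values past the threshold, 40 kept their direction and call in every alternative run. The count of called genes in the average over ages was 1 in the main analysis, beside 10.6% of all probe sets. It was 2 as deposited and 2 with array weights. It was 3 without E13.5 (beside 12.9%), 0 without PND1 to PND4 (6.12%) and 2 with PND1 to PND4 alone (13.5%). Chosen after seeing the data, it was 2 without E13.5, E17.5 and E18.5 (12.3%). The count for dependence on age, 5, was 1 with PND1 to PND4 alone and 2 without E13.5, E17.5 and E18.5. The counts for age, 7 in each genotype, were 3 and 3 with PND1 to PND4 alone. Array-wide shares were not counted for these F tests, nor as deposited or with array weights. The last settings hold fewer samples, and the cause of the changed counts was not tested. Leaving out each library in turn gave 1 to 3 for the average, 9 to 15 for the 77 differences at single ages (12 in the main analysis), 5 to 6 for dependence on age, 7 to 7 for age in either genotype, 21 to 27 for the wild-type steps (23) and 23 to 29 for the knockout steps (27).

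Averages over ages that turned sign had not passed in the main analysis, but those of Cyp2f2 passed once turned. For Cyp2s1 (0.03) the value was -0.01 as deposited, -0.02 with array weights, -0.08 with PND1 to PND4 alone, and from -0.02 (without wild-type PND14 replicate 2) to 0.06 (without wild-type PND14 replicate 1) when each library was left out. For Cyp2f2 (0.11) limma gave -0.27 without E13.5 (adjusted p = 0.00046) and -0.28 with PND1 to PND4 alone (0.0027). Without E13.5, E17.5 and E18.5 the Cyp2f2 average was -0.21 (adjusted p = 0.023). Cyp2b10 was -0.01 without E13.5 and Cyp4b1 -0.04 with PND1 to PND4 alone. With the knockout E17.5 and E18.5 labels exchanged, the differences at E17.5 were -0.45 for Cyp2f2, -0.34 for Cyp4b1 and -0.28 for Ahr. On the second Ahr probe set the average was 0.04 and the wild-type step from E15.5 to E17.5 was -0.13.

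With the replicate number as a block, the counts were 1, 12, 5, 7 and 7, and 25 and 27 for the steps. The numbers did not pair the samples: of 33 same-numbered pairs 1 correlated over 0.1 (r from -0.184 to 0.212), and 27 of 66 samples correlated best with their own number.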
